A study of Macaca mulatta with 11 samples.

Results

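The sites described here are CpG positions in macaque prefrontal cortex that were read as largely unmethylated although few other CpGs were listed around them and no CpG-dense stretch was measured nearby. They were chosen by 3 values: a density under 10, counted as the listed positions within 250 bp on either side with the position itself included, no position with a density of 40 or more within 4000 bp on the same chromosome, and a level under 20% when the reads of 11 animals were pooled. Of 3115109 listed positions, 38476 met the rule. The level chose the sites, so their low levels are a description and not a finding.

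Capture bisulfite sequencing, which reads unmethylated cytosines as thymine, was done on area 46 of the dorsolateral prefrontal cortex of 11 rhesus macaques (Macaca mulatta). The 2 animals of cohort 10 had ages of 5.02 and 5.08 and intake values of 2.11 and 3.19. The 9 animals of cohort 14 had ages from 5.18 to 5.44 and intake values from 1.69 to 4.31. Per the labels, all tissue was taken before the animals drank alcohol, the intake value is an ethanol value over 6 months, which the study's title places after sampling, and no unit is given for age or intake. No treated or untreated groups exist, so the design offers a relation to later intake and a comparison of the cohorts, in which cohort 10 is also the younger. The tissue was bulk, so a level is an average over all its cell types, and the label could not be checked against marker genes, because gene positions in these coordinates were not used here. For the same reason no sequence or gene is given for any site.

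In mammalian genomes most CpGs are methylated, and CpG islands, which often hold promoters, are the main exception. A further class of low-methylated places lies away from islands, is poor in CpGs, and often marks distal regulatory elements such as enhancers, where bound transcription factors go along with a local loss of methylation. In brain tissue many such places differ between neurons and glia, so a bulk sample can show an intermediate level.

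Summed over all positions, total counts were 479979855 to 934657900 per library, where a read over several positions counts at each. The median depth at the selected sites was 97.5 to 219 reads per animal. These counts can hold PCR copies, so the depth overstates the number of molecules. Animals 3, 6, 7 and 8 of cohort 14 stood apart in that 6.32% to 7.19% of all their positions had the lowest unmethylated count, against 3.38% to 4.70% in the other 7. The lowest methylated and unmethylated counts anywhere in the tables were both 1, as if 1 had been added to each. This raises a low level where reads are few: the mean level over the sites was 8.24% to 9.64% in the 11 animals as deposited and 7.52% to 8.56% with the added counts removed.

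Low-methylated sites were a small part of CpG-poor DNA and a small part of low-methylated DNA. Of the 710578 positions that met the density and distance limits at any level, 5.41% lay under 20%, and 403814 were at 80% or more. The sites made up 2.79% of the 1379371 positions of the table under 20%. The share under 20% rose with density, from 2.15% of positions with no other listed position within 250 bp to 9.60% of positions with a density of 9. Where a position of density 40 or more did lie within 4000 bp, 16.5% of positions with a density under 10 were under 20%. The limits cut through gradual slopes: 3075 positions lay in the last 2 points below the level limit and 3219 in the first 2 above it, and 8293 low-methylated positions at a density of 10 stood beside the 7462 at a density of 9.

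The sites did not share one kind of surroundings, and the name "far from islands" did not hold for many of them. To describe this, listed positions under 20% were joined into stretches wherever no listed position at 20% or more lay between them and neighbours were at most 500 bp apart, whatever their density. Consecutive sites were joined into runs in the same way, and a run held at least 3 CpGs. Of the sites, 15875 (41.3%) belonged to a low-methylated stretch that also held positions outside the rule, and are called sites beside denser low-methylated positions. A further 10606 (27.6%) lay in runs on their own, whose stretch held selected sites only. Beside such a run the next listed position was at 20% or more or over 500 bp away. The exception was a stretch over 1000 bp, where runs were split. Of the rest, 3131 (8.14%) were pairs of CpGs on their own, and 8864 (23.0%) were single CpGs. These classes were made after the data had been seen and use the same levels as the rule.

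Runs of the first class lay mostly at the ends of low-methylated stretches of moderate CpG density. A position of density 20 or more lay within 1000 bp of 70.1% of the sites of this class, against 9.75% of the sites in runs on their own and 9.30% of all CpG-poor remote positions. The 2476 runs of this class lay in 2106 stretches with a median width of 1128 bp and a median of 41 listed positions, of which a median of 14.3% were selected sites. The highest density in such a stretch had a median of 26, under the 40 that the rule takes as dense. Of the runs, 2164 (87.4%) sat at an end of their stretch and 312 inside it. This class is defined by low-methylated positions outside the rule in the same stretch, and runs on their own by having none. The contrast between them, and the place of runs at an end, are therefore partly fixed by the density limit. With 20 in place of 40 as the density to be avoided, a choice made after seeing the data, 19724 sites and 2105 runs were left of 38476 and 4620.

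**Figure D1:**
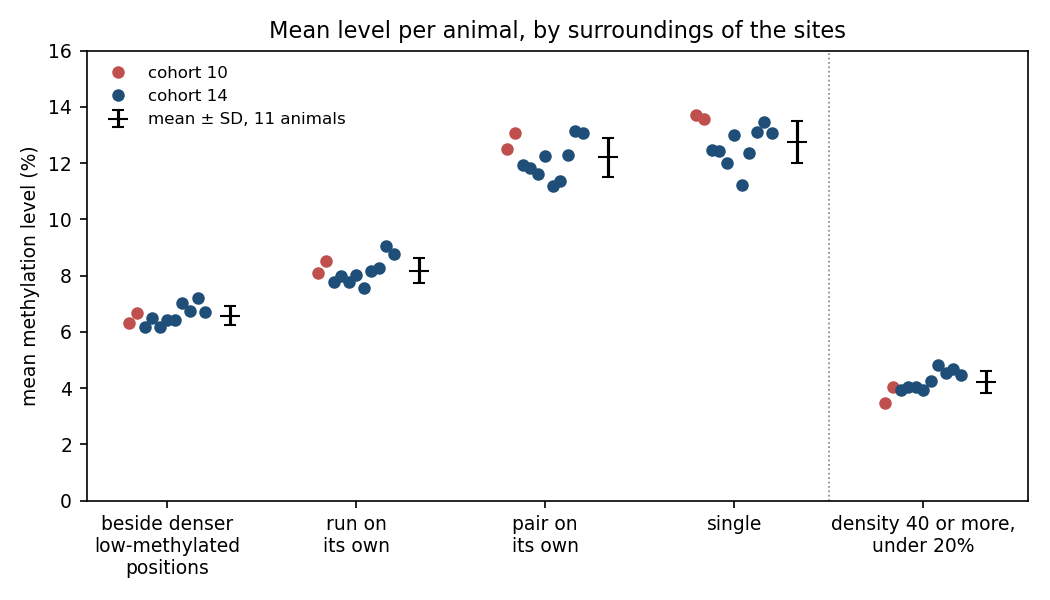
Mean methylation level per animal (%, vertical axis) over the sites of each class, and over positions of density 40 or more under 20% at the right. Each point is 1 animal, red for cohort 10 and blue for cohort 14, and bars give the mean and SD over 11 animals. Among the site classes, those beside denser low-methylated positions lie lowest at 6.17% to 7.22%. Pairs on their own at 11.2% to 13.1% and single sites at 11.2% to 13.7% lie highest and overlap.

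Levels differed between the classes. Over the sites beside denser low-methylated positions, the lowest animal had a mean level of 6.17%, the median animal 6.49% and the highest 7.22%. In runs on their own these values were 7.58%, 8.09% and 9.06%. Pairs on their own had 11.2%, 12.3% and 13.1%, and single sites 11.2%, 13.0% and 13.7%, so these 2 classes overlapped. The animals of the first 2 classes overlapped with no other class, but every class was also cut at 20%, so the order is a description. Low-methylated positions of density 40 or more lay below all of them at 3.48%, 4.05% and 4.82%. Of the sites in runs, 49.1% had a pooled level under 5%, and of the single sites 15.1%.

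Because the rule used all 11 animals, the sites were chosen again 11 times on the pooled reads of 10 animals and read in the animal left out. Between 38353 and 38725 positions were chosen each time. Their mean level in the left-out animal was 9.58% ± 0.396 (SD, n = 11), against 8.90% in the animals used for the choice. In the left-out animal 83.7% to 88.6% of the chosen sites lay under 20%, and 0.848% to 1.41% lay over 50%. For sites in runs the share under 20% was 89.8% to 94.1%, for sites in runs on their own 86.5% to 92.3%, and for sites not in runs 75.5% to 81.4%. The shares in runs and not in runs did not overlap over the 11 animals. Low-methylated positions of density 40 or more, treated the same way, were under 20% in 96.8% to 98.8% of cases.

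Runs were short. Of 18119 groups of consecutive sites, 10750 held 1 CpG, 2749 held 2, and 4620 were runs, of which 2605 held 3 or 4 CpGs, 2015 held 5 or more and 119 held 10 or more. The runs together held 22190 of the sites. First to last site, the median run measured 126 bp, with quartiles of 68 and 218 bp, and its pooled level had a median of 6.08%. Total counts summed over the positions of a run had a median of 456 in its shallowest animal and were 36 at the lowest. A read over several positions counts at each, so these sums exceed the depth.

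**Figure D2:**
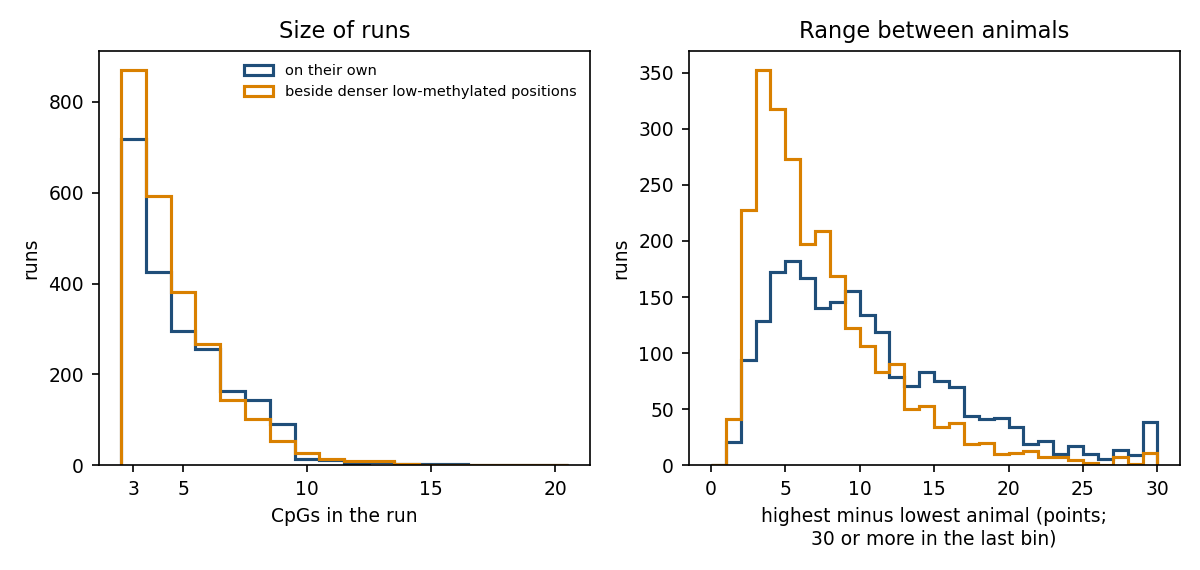
Left, number of runs by the CpGs they hold. Right, number of runs by the difference between the highest and the lowest animal in percentage points, with 30 or more in the last bin. The blue line counts the 2144 runs on their own and the orange line the 2476 beside denser low-methylated positions. Most runs hold 3 or 4 CpGs, and the median range is 9.13 points in the first group and 6.12 in the second.

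How sharply a run dipped below its surroundings could be read for few of them, because capture left many edges without listed positions. No position was listed within 1000 bp of 461 runs, and 1468 (31.8%) had at least 3 on each side. In these 1468 the mean level of up to 5 flanking positions on each side had a median of 20.8%. It was under 20% in 704 and at 50% or more in 85. Among the 336 such runs on their own the median flank was 31.7%, a median of 21.53 points above the run. Among the 1132 beside denser low-methylated positions it was 16.9%. The distance between the nearest positions at 50% or more on either side, where both were listed within 1000 bp, could be measured for 274 runs. It had a median of 977 bp, with quartiles of 690 and 1310 bp, and this width includes the unlisted DNA between a run and its flank.

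**Figure D3:**
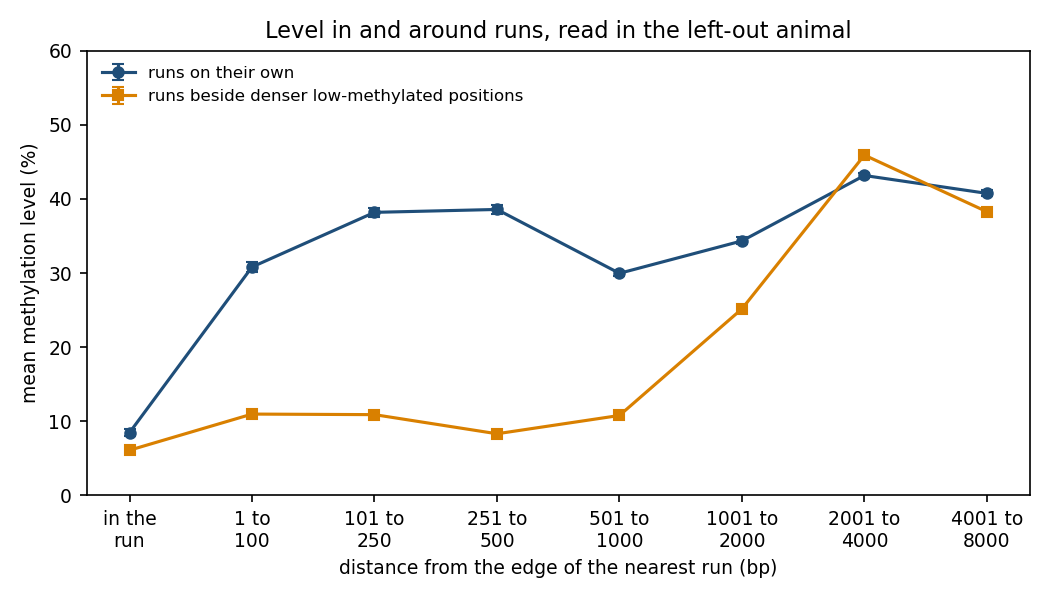
Mean methylation level (%, vertical axis) in runs and at all other listed positions by distance from the edge of the nearest run (bp, in bins). Each point is the mean over 11 animals, each read with runs chosen on the other 10, and the error bars (SD over animals) are mostly smaller than the symbols. Around runs on their own the level is 30.8% within 100 bp, and around runs beside denser low-methylated positions it stays near 10% out to 1000 bp.

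Levels around the runs, read in left-out animals, separated these 2 groups. Runs on their own had 8.47% ± 0.472 inside, 30.8% ± 0.641 within 100 bp and 38.2% ± 0.575 beyond that up to 250 bp (SD, n = 11). Around them the level was 38.6% ± 0.589 between 250 and 500 bp and 29.96% ± 0.377 between 500 and 1000 bp. Between 1000 and 2000 bp it was 34.3% ± 0.471, so the level did not rise steadily with distance. Runs beside denser low-methylated positions had 6.09% ± 0.365 inside and 10.97% ± 0.422 within 100 bp. Their surroundings were at 8.31% ± 0.386 between 250 and 500 bp and at 25.2% ± 0.292 between 1000 and 2000 bp. Between 2000 and 4000 bp the groups had 43.2% and 45.9%. By definition, the next listed position beside a run on its own was at 20% or more or over 500 bp away. Runs split at 1000 bp are the exception, and otherwise the step there is partly fixed by how the runs were made. The bins out to 4000 bp hold listed positions with a density under 40 only, since the rule allows no denser position that near a site. The mean over the whole table, 44.1% ± 0.237 (SD, n = 11), includes denser positions and is no like measure. Between 4000 and 8000 bp, where denser positions can lie, the groups had 40.8% and 38.3%.

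Of the runs, 42 lay between methylated flanks, that is, on their own with at least 3 listed positions on each side and a mean of 50% or more on both. Their flanks had a median of 68.1%, a median of 61.5 points above the run. The distance between positions at 50% or more had a median of 761 bp and ran from 422 to 1637 bp. Such positions were sought within 1000 bp of each edge of a run, which limits this distance. The following 3 hold most CpGs and were picked after their values were seen. On chromosome 4 from 143564135 to 143564920, 13 CpGs had 2.85% in the lowest animal, 8.40% in the median animal and 11.3% in the highest, with flanks at 57.1% and 79.4%. On the same chromosome from 141891821 to 141892384, 9 CpGs had 2.16%, 3.13% and 5.33%, with flanks at 59.7% and 82.6%. On chromosome 6 from 135023258 to 135023752, 9 CpGs had 3.47%, 5.51% and 7.17%, with flanks at 69.5% and 68.9%. In each of the 3 the highest animal lay more than 40 points below both flanks.

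**Figure D4:**
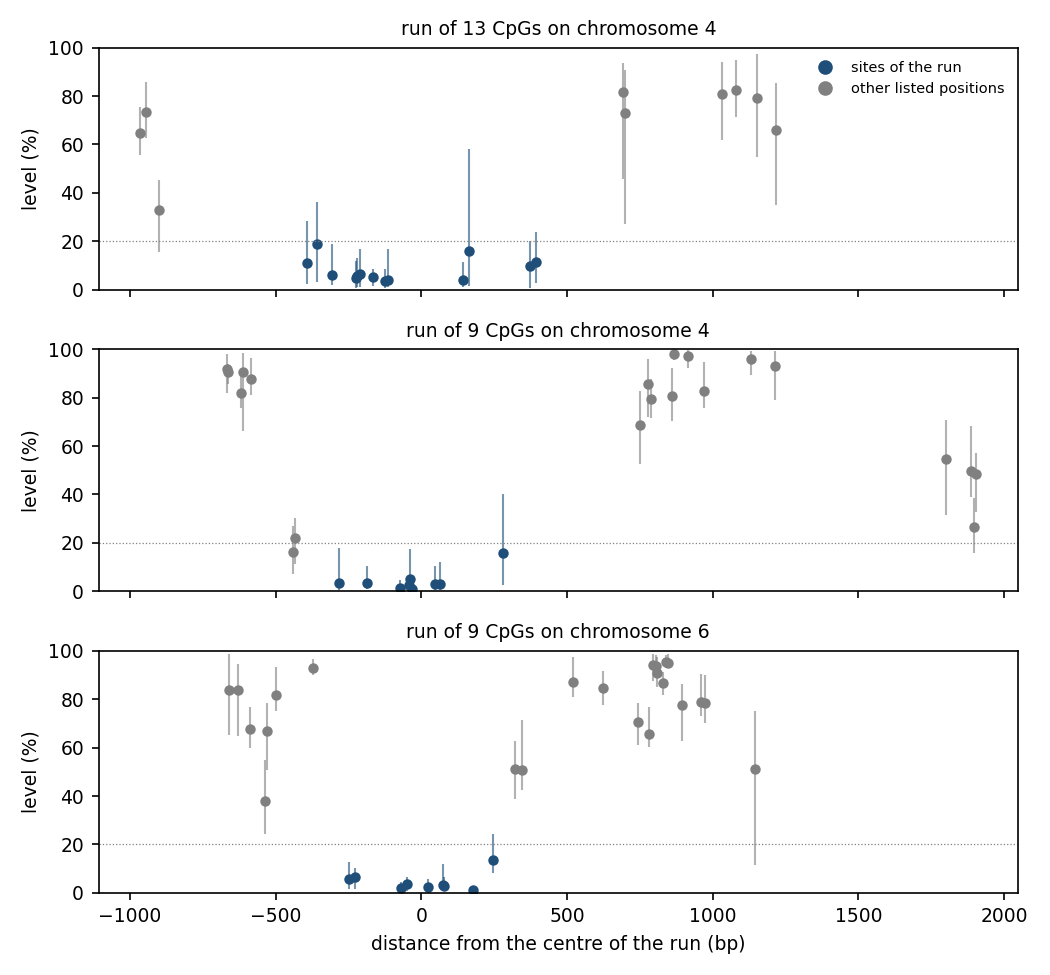
Pooled methylation level (%, vertical axis) of each listed position by distance from the centre of the run (bp) for the 3 runs between methylated flanks with most CpGs. Blue points are the sites of the run, grey points are other listed positions, vertical lines span the lowest to the highest of 11 animals, and the dotted line marks 20%. The means of the runs are 8.09%, 3.29% and 5.52% from top to bottom.

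The 9 runs with most CpGs held 15 to 20 CpGs, and their mean levels were 2.27% to 5.85%. The next 7 runs held 14 CpGs each, with mean levels from 2.65% to 12.5%, and the widest of them is named, as the tie was to be settled by width. The largest lay on chromosome 1 from 99376670 to 99377660, where 20 CpGs over 991 bp had 5.64% ± 1.52 (SD, n = 11). Its lowest animal had 2.97%, the median animal 6.00% and the highest 8.06%. On chromosome 12 from 20679113 to 20680004, 16 CpGs had 1.44%, 2.23% and 3.07%. There the left flank was at 88.5% and the right flank, inside a stretch of 2031 bp with a density of up to 36, at 1.87%. Both flanks together held 6 listed positions, with at most 5 on a side, so this run does not meet the limit of 3 on each side. On chromosome 14 from 115470295 to 115471017, 17 CpGs with no listed position within 1000 bp had 1.97%, 2.496% and 5.03%. Over the 9 runs the highest value of any animal was 9.27%, and over the 7 with 14 CpGs it was 18.5%.

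Every animal was under 20% in 3904 of 4620 runs (84.5%), which the pooled limit of 20% over the same animals largely fixes. The median SD between animals was 2.27 points, and the range exceeded 20 points in 244 runs. An animal over 50% occurred in 6 runs. Among runs of at least 5 CpGs, the smallest SD was 0.375 points, on chromosome 6 from 65593085 to 65593350, where 7 CpGs had 1.55% to 2.84%. The largest SD was 14.6 points, in 7 CpGs on chromosome 3 from 177116550 to 177116603, where animal 8 of cohort 14 was at 54.2% and the other 10 at 4.67% to 21.9%. Total counts of animal 8 summed over these 7 positions were 179, so few reads stand behind its level. In 6 CpGs on chromosome 5 from 88039459 to 88039545, animal 9 of cohort 14 was at 42.0% and the other 10 at 6.29% to 29.4%. In 9 CpGs on chromosome 4 from 162648070 to 162648288, animal 2 of cohort 14 was at 35.3%, the next at 26.1%, and the lowest at 2.65%. Animal 8 of cohort 14, 1 of the 4 libraries that stood apart, was the highest in 825 runs, and the other animals in 238 to 652. The part of the libraries in this was not tested.

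An animal over 50% was more often seen in single sites than in runs. Of the 8864 single sites, 1522 (17.2%) had at least 1 animal over 50%, against 244 of the 22190 sites in runs (1.10%). These shares were not matched for level or depth. The median pooled level was 13.3% at single sites and 5.11% in runs, and the median depth 120 and 160 reads. Over all sites, 1996 had an animal over 50%, of which 1617 had 1 such animal, 334 had 2, and 45 had 3 or 4. In the 1617 the high animal had a median level of 58.3%, and in 201 it was at 80% or more. The highest of the other 10 had a median of 37.2%, and in 178 sites all the other 10 were under 20%.

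By another measure, the spread between animals was compared at matched pooled levels in runs and in all other sites. For each animal the absolute difference between its level and the mean of the other 10 was averaged over sites. In runs this spread was 3.14 points in the lowest animal, 3.65 in the median animal and 4.50 in the highest. Sites not in runs, weighted to the same pooled levels, had 4.38, 4.57 and 5.23 points. It was smaller in runs in 11 of 11 animals, with a mean difference of -0.952 ± 0.184 points (SD, n = 11; exact sign-flip permutation test, two-sided p = 0.000977, the smallest that 11 animals can give). The median depth was 160 reads in runs and 128 in the other sites, and with weights for level and depth together the difference was -0.92 points. With the median in place of the mean absolute difference it was -0.178 points. Without sites where an animal was over 50%, a choice that trims the spread itself, it was -0.523 points. Each animal is compared with the other 10, so the 11 values are not fully independent. All 11 also gave the pooled levels that chose the sites and formed the runs, which limits what the p-value can show. Adjusted over the 2 comparisons of spread, the p-values were 0.000977 for both.

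**Figure D5:**
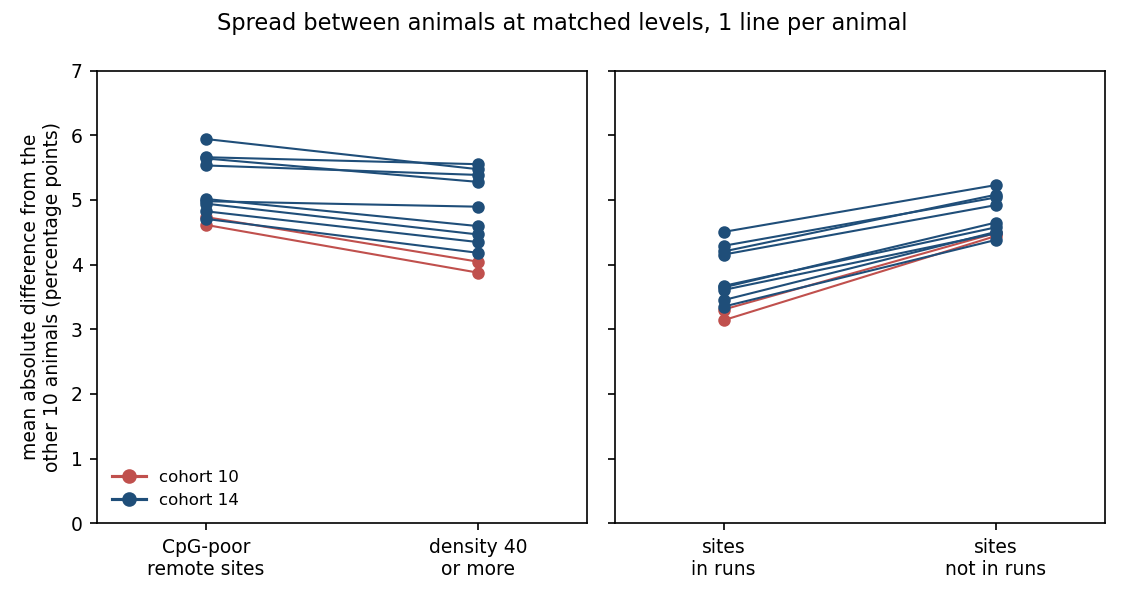
Mean absolute difference of an animal from the mean of the other 10, in percentage points (vertical axis), with 1 line per animal, red for cohort 10 and blue for cohort 14. On the left all selected sites are set against low-methylated positions of density 40 or more, and on the right sites in runs against sites not in runs, each at matched pooled levels. All 11 lines fall on the left and rise on the right.

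Against low-methylated CpG-dense positions the difference was smaller and depended on the measure. The selected sites had a mean spread of 5.14 ± 0.461 points and positions of density 40 or more, weighted to the same levels, 4.73 ± 0.61 (SD, n = 11). The sites were higher in 11 of 11 animals, by 0.409 ± 0.219 points (exact sign-flip permutation test, two-sided p = 0.000977). With the median in place of the mean absolute difference, the sites were lower by 0.11 points, so that the direction turned (exact p = 0.00195). Without positions where an animal was over 50%, a choice that trims the spread itself, the difference was -0.021 points (exact p = 0.7). Positions with an animal over 50% were 5.19% of the sites and 0.351% of the dense positions. The median depth was 146 reads at the sites and 122 at the dense positions. With weights for level and depth together, the sites were higher by 0.604 points in mean absolute difference.

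Single sites are described here by the level of their neighbours, with no test, since the same reads chose the sites. Of 7547 single sites with at least 2 other listed positions within 250 bp, the neighbours had a mean level of 20% to 50% around 3234 sites, 50% to 80% around 2203, and 80% or more around 1550. An animal over 50% occurred in 5.41%, 20.3% and 38.7% of these sites. The pooled level ran the other way, with medians of 15.1%, 12.8% and 9.91%. Per animal, the share of sites over 50% was 0.534% ± 0.242 with neighbours at 20% to 50% and 4.75% ± 0.938 with neighbours at 80% or more (SD, n = 11). The difference was 4.22 points, and this grouping was made after seeing the data. The median depth was lower where neighbours were methylated, 91.1 against 150 reads, and over sites with a mean depth of at least 100 reads the difference was 5.54 points. At the same time 444 of the 1550 sites with methylated neighbours (28.6%) were under 20% in all 11 animals.

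No group of sites passed a test for a relation to later intake. Runs, pairs and single sites were tested as blocks together with all other positions of the table, 247281 blocks in all, in a quasi-binomial logistic model with cohort as a covariate. Of the 18119 blocks of selected sites, 0 had a Benjamini-Hochberg adjusted p under 0.05 (background 0%), and 491 (2.71%) had an unadjusted p under 0.05, against 3.23% of all blocks. Of these, 278 had a slope above 0 and 213 below 0, 1.53% and 1.18% of the blocks against 2.01% and 1.22% of all. Limma on logit methylation called 0, and 963 blocks of sites (5.31%) fell under an unadjusted p of 0.05 (background 3.43%). The quasi-likelihood test of edgeR also called 0, with 867 (4.79%) under that limit (background 3.54%). The share of blocks of sites was thus below that of all blocks in the logistic model and above it in both other fits. The median standard error of a run's slope was 0.959 percentage points per unit of intake, and the slopes had quartiles of -0.46 and 0.70 points. The design was weak for blocks of sites: in simulated counts, at most 2% of changed blocks were recovered at any slope tried. Only blocks of sites were changed there, so the part of their low level in this was not tested.

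The runs with the smallest intake p-values are given as not having passed, all with an adjusted p of 0.999978 in the logistic model with dispersion shrunk by limma. On chromosome 13 from 68427205 to 68427555, 8 CpGs had 2.80% in the lowest animal, 3.76% in the median animal and 7.17% in the highest, and the fitted slope was 1.54 ± 0.406 points (SE, n = 11) for each unit of intake. On chromosome 12 from 52627886 to 52628046, 6 CpGs had 2.12%, 3.003% and 6.28%, highest in animal 9 of cohort 14, which has the highest intake value, with a slope of 1.51 ± 0.315. The steepest of the 5 slopes above 0 was 5.65 ± 2.09 points per unit, in 5 CpGs on chromosome 8 from 19004212 to 19004321. In 6 CpGs on chromosome 16 from 51084050 to 51084166 the logit slope was 0.60 per unit and 0.32 without animal 9 of cohort 14. Among slopes below 0, a run of 3 CpGs on chromosome 14 from 118217673 to 118217750 had the smallest p, at 5.57%, 10.0% and 15.1%, with a slope of -3.94 ± 0.817. Over the 5 runs with slopes below 0, slopes ran from -3.94 to -1.48 points per unit.

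The mean level over all sites did not follow intake either. Pearson's r was 0.0048 over 11 animals (permutation p = 0.989, adjusted 0.989) and Spearman's rho -0.0091 (permutation p = 0.99, adjusted 0.99). For sites in runs r was 0.2 (permutation p = 0.554, adjusted 0.945) and for sites not in runs -0.164 (permutation p = 0.63, adjusted 0.945), with rho of 0.227 (permutation p = 0.504, adjusted 0.809) and -0.209 (permutation p = 0.539, adjusted 0.809). These were 3 relations. When the 2 animals with intake farthest from its median were left out, r over all sites was -0.302 (exact permutation p = 0.425), and within cohort 14 it was 0.0026 (exact permutation p = 0.995). Cohort 10 holds 2 animals and gives no correlation of its own. Over all sites the mean level changed by 0.0027 ± 0.184 points (SE, n = 11) for each unit of intake.

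The mean level of the cohorts was compared in 3 sets of sites. Over all sites it was 9.01% and 9.29% in cohort 10 and 8.85% ± 0.441 (SD, n = 9) in cohort 14, whose animals ran from 8.24% to 9.64%. The difference of 0.301 points gave an exact permutation p of 0.382 (two-sided, adjusted 0.573 over 3 sets), and the smallest p the 55 arrangements allow is 0.0182. For sites not in runs the difference was 0.726 points (exact permutation p = 0.127, adjusted 0.382), and both animals of cohort 10 lay within the range of cohort 14. For single sites alone, which were not tested, cohort 10 had 13.56% and 13.7% and lay above all of cohort 14 at 11.2% to 13.46%. The median depth at single sites was 83 and 89 reads in cohort 10 and 103 to 182 in cohort 14, and with the added counts removed cohort 10 had 12.19% and 12.26%, within the 10.5% to 12.29% of cohort 14. Of the 18119 blocks, 0 differed between cohorts at an adjusted p under 0.05 in the logistic model (background 0.000404%), where the smallest adjusted p was 0.0786, and 305 (1.68%) had an unadjusted p under 0.05 against 2.83% of all blocks. Of the 305, 289 were higher in cohort 10 (1.60% of blocks of sites) and 16 lower (0.088%), against 0.7% and 2.13% of all blocks. Limma called 1 of the 18119 (background 0.000809%), with 1078 (5.95%) under an unadjusted p of 0.05 (background 4.09%). Of these, 714 (3.94%) were higher in cohort 10 and 364 (2.01%) lower, against 1.32% and 2.77% of all blocks. The edgeR test called 6 (background 0.00324%), with 752 (4.15%) under an unadjusted p of 0.05 (background 4.42%). Of these, 464 (2.56%) were higher and 288 (1.59%) lower, against 1.08% and 3.34% of all blocks. All limma and edgeR calls were higher in cohort 10. With the added counts removed, the logistic model called 2, both lower in cohort 10. The median depth at all sites was 97.5 and 106 reads in cohort 10 and 126 to 219 in cohort 14. An effect of cohort cannot be told apart from one of age or of depth.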

How the data were processed

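DNA was extracted with a Qiagen AllPrep kit and libraries were enriched by SureSelect XT Human Methyl-Seq capture, whose probes are designed on the human genome, per the labels' protocols. The submitters' processing notes name FastQC and Bismark. Which versions and which genome build they used, and whether strands were merged, is not stated there. The authors deposited methylated and total read counts per CpG position, whole numbers that were not normalized. Of the columns, 11 match a library in the labels, and 5 that match none were not used. The lowest total was 12, so a coverage minimum of 10 removed nothing. "Far from islands" refers to listed positions only, since uncaptured DNA was not measured.

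The sites and classes were chosen with earlier results of these data known. Consecutive positions that were all sites or all not sites, at most 500 bp apart and split at 1000 bp, formed blocks. Site blocks with at least 3 CpGs, with 2 positions 1 bp apart counted as 1, are runs. Named runs are the 10 with most CpGs, the 5 each with the largest and the smallest SD among those with at least 5 CpGs, and the 5 with the smallest intake p in each direction. Not all of them are printed. The rule for the 3 dips was added later. Block counts were fitted by quasi-binomial logistic regression with dispersion shrunk across all blocks by limma, with Benjamini-Hochberg adjustment over all blocks and a threshold of 0.05. Tests over animals were permutation tests, exact below 10 animals and for sign flips and cohorts, otherwise with 100000 resamples. Replicates are the libraries of a cohort, which the labels give different ages and intake values and which are taken as separate animals.

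The fit was tested on simulated data for the relation to intake over 247281 blocks, drawn with the median intraclass correlation of the site blocks, 0.0209. Without change no block passed (0 calls), and the unadjusted p was under 0.05 in 4.62%. With 50 changed site blocks at each slope, 0%, 0%, 0% and 2% were called at logit slopes of 0.25, 0.5, 1 and 1.5 per unit. Fits ran in R 4.3.3 (edgeR 4.0.16, limma 3.58.1) and all else in Python 3.11.15 with pandas 2.3.3, scipy 1.17.1 and numpy 2.4.6.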

Additional observations from a re-analysis of the deposited data

Results flagged for a closer look

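Among the 9 animals of cohort 14, 49 sets of values were searched for an animal far from the others, and 5 held one. Chance gives about 1 in 20 for unselected sets, and some of these runs were chosen for a wide spread or a small p. In the run of 17 CpGs on chromosome 14 from 115470295 to 115471017, animal 7 was at 5.03% and the other 8 at 1.97% to 2.88%, with cohort 10 at 3.02% and 3.84%. In the run of 14 CpGs on chromosome 4 from 137966723 to 137967682, animal 8 was at 12.1% and the others at 4.06% to 7.45%. Animal 8 was also far above the others in the 7 CpGs on chromosome 3 from 177116550 to 177116603, at 54.2% against 4.67% to 21.9%. Its total counts summed over these positions were 179. In 3 CpGs on chromosome 20 from 76645596 to 76645683, named after its values were seen, animal 3 was at 51.6% and the others at 1.68% to 16.5%. The summed total counts of animal 3 there were 91. In 3 CpGs on chromosome 15 from 20443981 to 20444015, chosen for a small intake p, animal 9 was at 8.0% and the others at 0.84% to 4.22%. Animals 3, 7 and 8 are among the 4 libraries that stood apart in the report.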

How the results depend on the processing

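Blocks of sites related to intake numbered 0 under each of 19 alternatives. For intake, the fits without either animal of cohort 10 repeat the fit of cohort 14 alone, because the cohort covariate absorbs the animal left. The alternatives are therefore not all separate. Blocks differing between cohorts numbered 0 to 2 without 1 animal, with 2 without animal 5 or animal 9 of cohort 14, 1 by limma, 6 by edgeR, and 2 with the added counts removed (both lower in cohort 10), and the cause was not tested. The correlation of the mean level with intake was -0.231 to 0.189 without 1 animal, the lowest without animal 9 and the highest without animal 8 of cohort 14, and -0.302 without the 2 animals of most extreme intake, never with a p under 0.05. The difference between cohorts was -0.018 points with the added counts removed. The larger spread of the sites than of dense positions, 0.342 to 0.465 points without 1 animal, turned to -0.11 by the median and -0.021 without positions with an animal over 50%, while the smaller spread in runs kept its direction in 16 of 16 alternatives. With a level limit of 10%, 23707 sites and 3009 runs were left, with at least 5 CpGs 2015 runs, and with no density of 20 or more nearby 19724 sites and 2105 runs. The mean level in left-out animals was 8.85% with the added counts removed. The 10 runs named for intake kept their direction in 174 of 174 fits and passed in 0. These runs were chosen for a small intake p in the same animals, so a kept direction is no further support. They were not refitted with neighbours at most 250 bp apart, 5 of them fell outside the limits of 5% to 95%, and 1 was not refitted at a coverage minimum of 50. No paired analysis was possible because a replicate number here only names an animal by its place in the accession list. The median depth was 120 reads at single sites and 160 at sites in runs, and PCR copies are not known.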

Other observations

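The share of CpG-poor remote positions that were under 20% was 8.99% on chromosome 19 and 4.24% to 6.91% on the other 19 chromosomes, lowest on chromosome 17. Chromosome 1 held most runs, 549, of which 266 stood on their own, and chromosome 18 fewest, 50 and 21. At 107 places a site had a listed position 1 bp away, as the other strand of the same CpG would be. Both were selected sites in 82 of these, and their pooled levels differed by a median of 1.57 points. In the other 25 the second position had a median level of 27.7%, and in 2 it was at 50% or more. Among 1317 single sites with fewer than 2 listed neighbours within 250 bp, 337 (25.6%) were under 20% in all animals and 272 (20.7%) had an animal over 50%.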
